A study of Mus musculus with 6 samples.

Results

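Motile cilia genes were followed in mouse small-cell lung cancer cells sorted by a reporter of Hes1. The set holds 10 genes of the motile cilium and of the program driven by the transcription factor Foxj1, chosen by name: Foxj1, Rfx2, Rfx3, Tppp3, Dynlrb2, Ccdc39, Tekt1, Dnah5, Rsph1 and Cdhr3. A gene was read from an array row whose annotation names that gene alone, and 9 of the 10 had such a row, each exactly 1, among 22179 genes measured in this way. Ccdc39, which sets the repeat length of the axoneme together with Ccdc40, shares its row with Ttc14, so no value is given for it.

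All 6 samples came from mice with conditional alleles of Rb, p53 and p130, deleted in the lung by Cre from an adenovirus given into the trachea, and all carried a GFP reporter allele for Hes1, a repressor induced by Notch signalling. Tumours dissected 5 to 6 months after the virus were combined and separated by flow cytometry into GFP-negative cells (3 samples, labelled negative or low for the reporter) and GFP-high cells (3 samples), and their RNA was read on Affymetrix Mouse Gene 2.0 ST arrays. The protocol for sorting names 3 mice per pool, whereas the source name speaks of a mouse. The titles call the samples biological replicates, but no source used here says whether samples of a group came from separate pools. The p-values thus measure the spread between these samples, which may be technical. The adenovirus names no cell type in which Cre acted, the reporter follows 1 gene, and no source used here gives mouse strain or age.

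Motile cilia beat on the surface of airway ciliated cells and move mucus. Each is built on an axoneme of microtubule doublets around a central pair, with dynein arms as motors, radial spokes and nexin links as regulators, and tektins and other proteins inside the doublets. Foxj1 switches on genes of the motile axoneme, while factors of the Rfx family bind an inverted repeat called the X-box upstream of ciliary genes, including those of the immotile primary cilium that most cells carry. In normal lung, ciliated cells are a cell type distinct from neuroendocrine, club and alveolar cells. Notch signalling in the airway favours secretory over ciliated fate.

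Sequences before a start in the RefSeq promoter table are shown for 3 members. They hold the core arm of the X-box, GTTGCC, and belong to members with values. Dynlrb2 and Cdhr3 were called higher and Tekt1 was not called. Rfx2 also had a match and values and was not called, but its sequence is not shown. The sequences are from RefSeq (GRCm38.p6), on the gene's own strand and ending at the base before that start. Capitals mark matches to GTTGCC on either strand or to the paired form GTTGCNNNGCAAC. The Dynlrb2 stretch is chr8:116504765-116505014 (plus strand), the Cdhr3 stretch chr12:33092876-33092975 (minus strand) and the Tekt1 stretch chr11:72361883-72361982 (minus strand). The RefSeq span of Dynlrb2 begins at 116505015, directly after its stretch. That of Tekt1 reaches 72362442, so the Tekt1 stretch lies inside the gene. The span of Cdhr3 reaches 33092901, so the end of the Cdhr3 stretch, with its match, also lies inside the gene.
Dynlrb2: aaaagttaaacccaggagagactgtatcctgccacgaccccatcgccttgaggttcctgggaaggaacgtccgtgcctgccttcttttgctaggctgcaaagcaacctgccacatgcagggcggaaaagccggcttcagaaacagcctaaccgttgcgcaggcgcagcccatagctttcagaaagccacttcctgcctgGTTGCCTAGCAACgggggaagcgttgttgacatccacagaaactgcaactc
Cdhr3: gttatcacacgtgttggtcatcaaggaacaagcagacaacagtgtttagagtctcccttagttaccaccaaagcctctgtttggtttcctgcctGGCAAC
Tekt1: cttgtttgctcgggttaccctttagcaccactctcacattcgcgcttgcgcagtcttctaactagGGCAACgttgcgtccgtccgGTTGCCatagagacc

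Foxj1, Rsph1 and Tppp3 had no entry in the RefSeq promoter table and were not searched, and Rsph1 and Tppp3 are among the members called lower. The other 7 of the 10 members had an entry, in 8 windows of 250 bases before the start given there. Not every such start is the first base of the gene. By the RefSeq gene spans, the windows of Dnah5, Rfx3 and Tekt1 lie inside the gene, and those of Ccdc39 and Cdhr3 reach into it. GTTGCC was present in 4 of these windows, those of Dynlrb2, Tekt1 (2 matches), Cdhr3 and Rfx2, against 10.4% of all 32851 windows. The paired form was searched with 3 and with 4 bases between the arms. The form with 3 bases was found upstream of Dynlrb2, where it includes that gene's GTTGCC match and lies 51 to 39 bases before the start, and in 68 of the 32851 windows (0.207%). The form with 4 bases, GTTGCNNNNGCAAC, was in 46 windows (0.14%) and in none of the 8. A match describes the letters in the window and is not a measured binding site.

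Between the groups, the 9 measured members did not move together. GFP-high cells had more of 2 and less of 3 at an adjusted p under 0.05, and 4 did not pass. Over all 22179 genes, 30% were called, 13% as higher and 17% as lower. The median log2 fold change of the members was -0.24, against 0.0075 over all genes tested. The values of the groups did not overlap in 5 of the 9 members, the same 5 that passed, against 44.6% of all genes. The count of falls depends on single arrays: only Rfx3 remained below the threshold when GFP-negative replicate 1, GFP-high replicate 1 or GFP-high replicate 2 was left out, which gave 1 call in each case, while leaving out GFP-high replicate 3 gave 4.

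**Figure D1:**
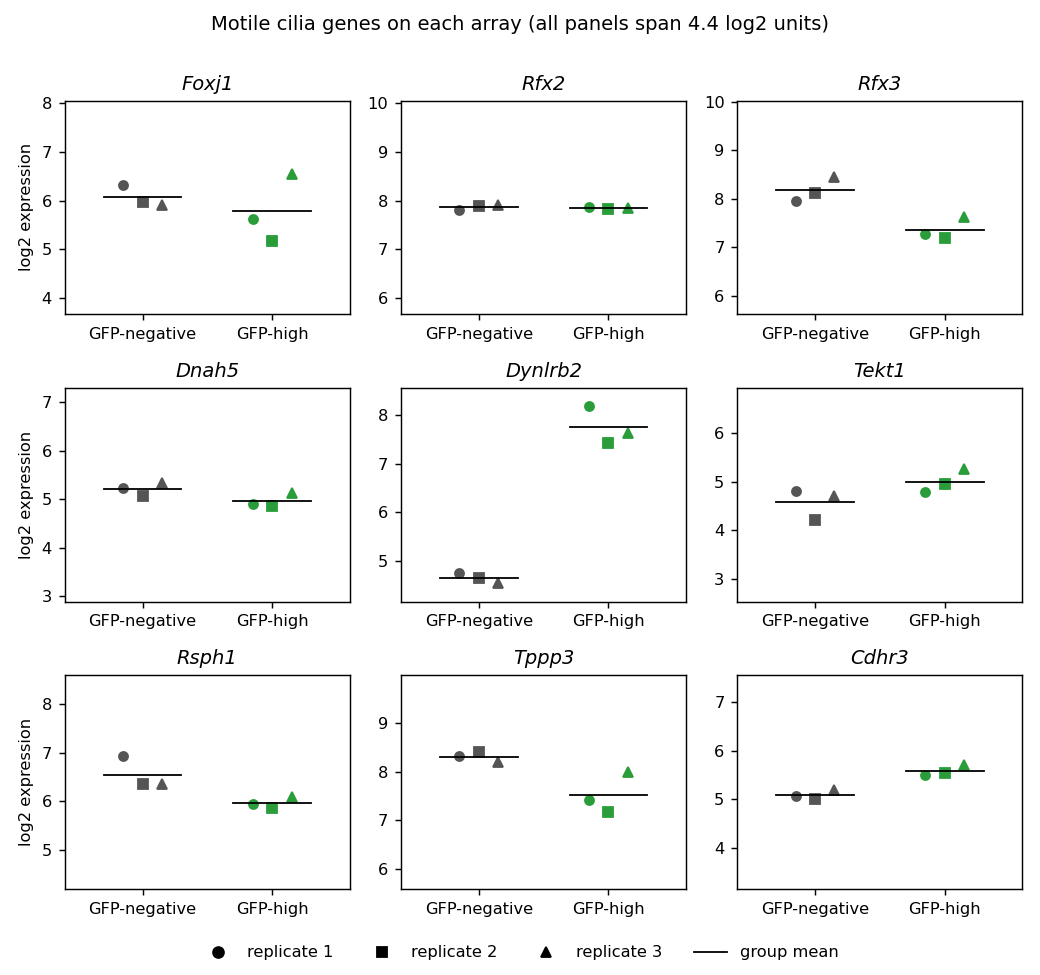
Log2 expression (vertical axis) of the 9 measured genes on the 3 GFP-negative and 3 GFP-high arrays; symbols mark replicates and black bars the group means. Dynlrb2 is set apart by a gap between 4.75 and 7.43, Rfx2 lies between 7.82 and 7.90 on all arrays, and Foxj1 reaches its highest value, 6.55, on GFP-high replicate 3.

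Foxj1 itself, the forkhead factor that switches on the motile program, did not differ beyond the spread of the arrays. Its log2 values were 6.33, 5.98 and 5.92 in GFP-negative cells and 5.63, 5.17 and 6.55 in GFP-high cells. The groups overlapped, because GFP-high replicate 3 was the highest of all 6 arrays while the other GFP-high arrays were the lowest. The log2 fold change was -0.29 ± 0.31 (SE; 95% interval -0.99 to 0.41; adjusted p = 0.539). Without GFP-high replicate 3 it was -0.67 (adjusted p = 0.0340), and without GFP-high replicate 2 it was 0.013.

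Of the Rfx factors, which act on motile and primary cilia alike, Rfx3 passed and Rfx2 did not. Rfx3 read 7.96, 8.13 and 8.45 in GFP-negative cells and 7.27, 7.19 and 7.63 in GFP-high cells. All GFP-high arrays were below all GFP-negative arrays, and the fall of 1.76-fold (log2 fold change -0.82 ± 0.17 SE, adjusted p = 0.00619) passed with every array left out in turn. Rfx2 read 7.82, 7.89 and 7.90 in GFP-negative cells and 7.88, 7.83 and 7.86 in GFP-high cells. Its interval of -0.25 to 0.22 around a log2 fold change of -0.015 (adjusted p = 0.934) is the narrowest of the 9 members. Among their paralogs Rfx7 was lower (-0.49 ± 0.11 SE, adjusted p = 0.00863) and Rfx4 higher (0.77 ± 0.12 SE, adjusted p = 0.00108), with no overlap between groups in either, and Rfx1 (0.10) and Rfx5 (0.072) did not pass.

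Of the dynein genes, Dynlrb2 showed the largest difference of the set. It encodes a light chain of the roadblock type, a subunit of cytoplasmic dynein motors, and is abundant in ciliated tissues. Its log2 values were 4.75, 4.66 and 4.55 in GFP-negative cells and 8.19, 7.43 and 7.63 in GFP-high cells. The 3 GFP-high arrays were all far above the GFP-negative ones, an 8.57-fold rise (log2 fold change 3.10 ± 0.19 SE, adjusted p = 7.68e-06), and over all alternatives the log2 fold change stayed between 2.88 and 3.26. Dynlrb1, the paralog that serves cytoplasmic dynein broadly, did not pass. It read 10.25, 10.40 and 10.44 in GFP-negative cells and 10.11, 10.12 and 10.15 in GFP-high cells, with a log2 fold change of -0.24 ± 0.11 (SE, adjusted p = 0.142). The light chains Dynll1 (0.25), Dynll2 (-0.23) and Dynlt3 (0.17) also did not pass.

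Dnah5, a heavy chain that drives the outer dynein arm, did not differ beyond the spread of the arrays. It read 5.22, 5.06 and 5.33 in GFP-negative cells and 4.91, 4.85 and 5.12 in GFP-high cells. The groups overlapped, since GFP-high replicate 3 lay above GFP-negative replicate 2, and the log2 fold change of -0.24 ± 0.13 (SE; 95% interval -0.53 to 0.048) did not pass (adjusted p = 0.199).

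Of the axoneme members with values, Rsph1 passed and Tekt1 did not. Tekt1, a filament protein inside the doublets, read 4.81, 4.20 and 4.71 in GFP-negative cells and 4.78, 4.95 and 5.26 in GFP-high cells. The groups overlapped at 4.78 and 4.81, and the log2 fold change of 0.42 ± 0.19 (SE; 95% interval -0.011 to 0.86) did not pass (adjusted p = 0.137). Of its paralogs Tekt2 (-0.42), Tekt3 (0.12) and Tekt4 (-0.22) did not pass, and Tekt5 was lower (-1.57). Rsph1, a protein of the radial spoke head, read 6.94, 6.37 and 6.35 in GFP-negative cells and 5.95, 5.86 and 6.08 in GFP-high cells. All GFP-high values were the lower ones, and GFP-negative replicate 1 stood above the other GFP-negative arrays. The fall of 1.5-fold (log2 fold change -0.59 ± 0.17 SE, adjusted p = 0.0315) no longer passed without GFP-negative replicate 1 (log2 fold change -0.40, adjusted p = 0.0716), GFP-high replicate 1 (0.0817) or GFP-high replicate 2 (0.0993).

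Tppp3, a tubulin-binding protein that bundles microtubules and is used as a marker of ciliated cells in the airway, was lower in GFP-high cells. It read 8.32, 8.41 and 8.19 in GFP-negative cells and 7.41, 7.16 and 7.98 in GFP-high cells. The groups did not overlap, but GFP-high replicate 3 lay close to the lowest GFP-negative array. The fall was 1.73-fold (log2 fold change -0.79 ± 0.20 SE, adjusted p = 0.0166), but it missed the threshold when replicate 1 or 2 of either group was left out (adjusted p = 0.0526 to 0.0578). The relatives Tppp (-0.12, adjusted p = 0.571) and Tppp2 (0.022, adjusted p = 0.932) did not pass.

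Cdhr3, a cadherin-related surface protein of airway ciliated cells that serves rhinovirus C as a receptor, was slightly higher in GFP-high cells. It read 5.07, 5.01 and 5.19 in GFP-negative cells and 5.49, 5.55 and 5.70 in GFP-high cells. Every GFP-high array exceeded every GFP-negative one, a 1.40-fold rise (log2 fold change 0.49 ± 0.11 SE, adjusted p = 0.0115) that passed with every array left out. Of the other cadherin-related genes Cdhr1, known from photoreceptors, fell by 1.82 ± 0.26 on the log2 scale (SE, adjusted p = 0.000831), and Cdhr2 (0.21) and Cdhr5 (-0.15) did not pass. Cdhr4 read 4.89, 4.73 and 5.32 in GFP-negative cells and 5.49, 5.39 and 5.72 in GFP-high cells, a rise of 0.55 ± 0.17 on the log2 scale (SE, adjusted p = 0.0387). Its groups did not overlap, but it passed with only GFP-negative replicate 3 left out and missed the threshold with any of the other 5 arrays left out (adjusted p = 0.0534 to 0.121).

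**Figure D2:**
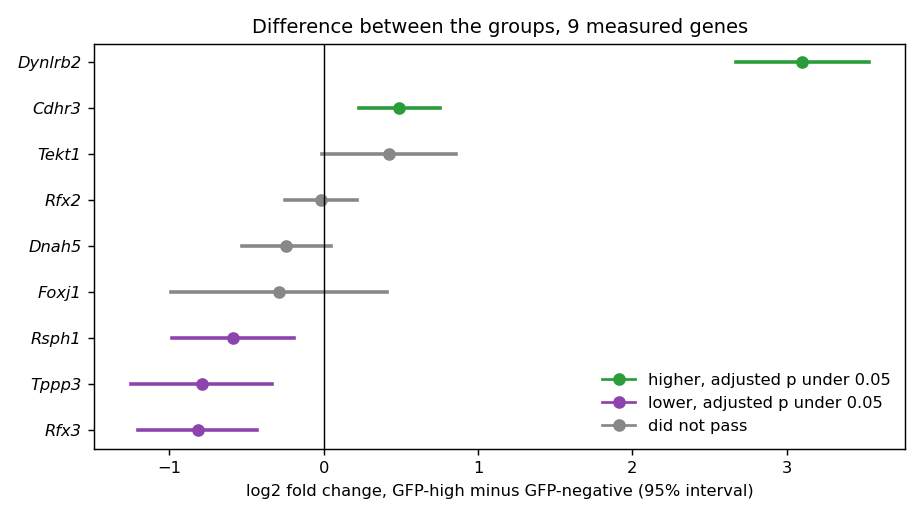
Log2 fold change of GFP-high minus GFP-negative (horizontal axis) with its 95% interval for the 9 measured genes, coloured by the call at an adjusted p under 0.05. Dynlrb2 lies at 3.10, every other gene lies between -0.82 and 0.49, and the intervals of Foxj1, Rfx2, Dnah5 and Tekt1 include 0.

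The GFP-high arrays differed among themselves in these genes. GFP-high replicate 3 had the highest value of the 3 GFP-high arrays for 7 of the 9 members and the lowest for none, while over all genes tested it was the highest for 34.5%. Relative to the GFP-negative mean, Foxj1 was at 0.47 in that array and at -0.44 and -0.90 in GFP-high replicates 1 and 2. Tppp3 was at -0.32 there, against -0.90 and -1.15. The exceptions were Dynlrb2 and Rfx2, for which GFP-high replicate 1 was highest. Among 110 other motile cilia genes, GFP-high replicate 3 was the highest GFP-high array for 53 (48.2%). Of the 8 defining ciliated markers listed below, which include Foxj1, that array was the highest GFP-high array for 5 and the lowest for 1. Chosen from these after their values were seen, Rsph4a, a radial spoke head gene, read 5.88 there against 4.82 and 4.74. Sntn, a gene of the ciliary tip, read 4.98 there against 4.43 and 4.19. Neither passed with all arrays; Rsph4a passed without GFP-high replicate 3 (log2 fold change -0.57, adjusted p = 0.0192), and Sntn without GFP-high replicate 2 (0.72, adjusted p = 0.0224) and with median centring (adjusted p = 0.0492). The same array was also the highest of its group for all 8 neuroendocrine markers, all 7 fibroblast markers and 8 of 10 alveolar type 2 markers. It was the lowest for 9 of 10 alveolar type 1 markers and the highest for 1 of 10 club and secretory markers, and the part of these cells in the values was not tested.

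**Figure D3:**
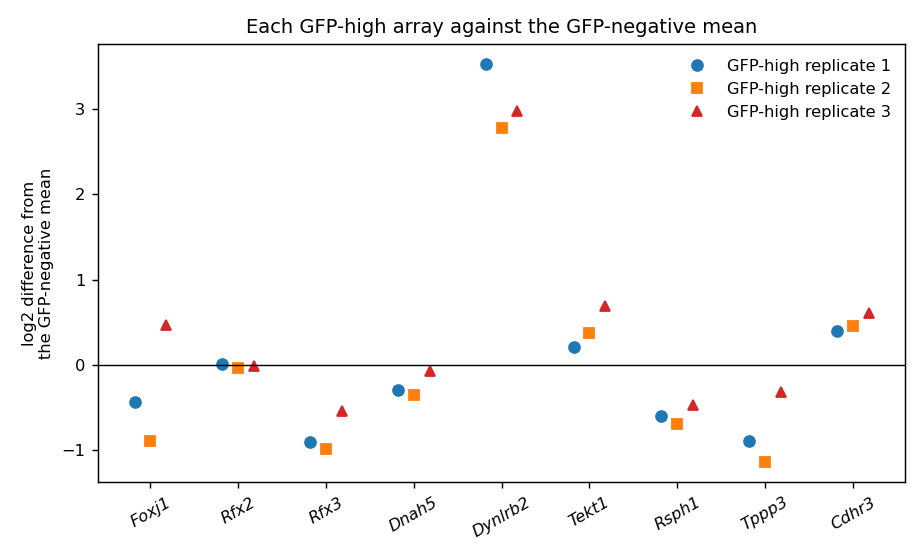
Log2 difference of each GFP-high array from the GFP-negative mean (vertical axis) for the 9 genes, with symbols and colours for the 3 arrays. The triangles of replicate 3 are uppermost for 7 genes, and for Foxj1 they lie at 0.47 while the other arrays lie at -0.44 and -0.90.

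The label of a ciliated program was set beside defining markers of ciliated cells. They are not an independent check, since Foxj1 is a member and the others belong to the motile cilia lists below. Of the 8 genes Foxj1, Dnaic1, Dnah9, Rsph4a, Sntn, Tekt2, Ccdc113 and Tmem212, 0 were higher and 1, Tmem212, was lower by limma (log2 fold change -0.66, adjusted p = 0.00494). This was 12.5% called, against 30% of all genes. The mean log2 level of the 8 ran from 5.29 to 5.51 in GFP-negative arrays and from 4.99 to 5.50 in GFP-high arrays, so the groups overlapped in this mean. Gene by gene, 2 (Sntn and Ccdc113) lay higher on every GFP-high array, 2 (Dnaic1 and Tmem212) lay lower and 4 overlapped. Over all genes 44.6% did not overlap. Array medians over all rows were 5.30 to 5.43. The deposited values carry no detection call, so whether these genes were above background was not tested, and none is listed at 0.

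Markers of other lung cells moved strongly in the same arrays. Of 10 club and secretory markers 9 were higher in GFP-high cells, with a mean log2 level of 7.52 to 8.34 in GFP-negative and 11.8 to 12.003 in GFP-high arrays. Of 10 alveolar type 2 markers 8 were higher (6.31 to 6.73 against 9.72 to 10.2), and all 10 alveolar type 1 markers were higher (7.002 to 7.12 against 9.05 to 9.35). All 8 measured neuroendocrine markers were lower (9.92 to 10.01 against 7.25 to 8.26). Leukocyte markers had 0 higher and 1 lower of 7, and their ranges overlapped (5.14 to 5.48 against 4.91 to 5.28). Basal markers had 1 higher of 4, tuft markers 1 higher of 5, endothelial markers 1 higher and 1 lower of 7, and fibroblast markers 1 lower of 7. Over all genes 13% were called higher and 17% lower. Fewer cells of a type and less RNA per cell cannot be told apart in these sorted bulk samples, and the part of club, alveolar or neuroendocrine cells in the rise of Dynlrb2 or the falls of Rfx3 and Tppp3 was not tested. Hes1, the gene the reporter follows, averaged 6.85 in GFP-negative and 10.40 in GFP-high arrays, and arrays correlated at 0.987 to 0.991 within groups and 0.918 to 0.940 between them, across genes that are not independent.

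**Figure D4:**
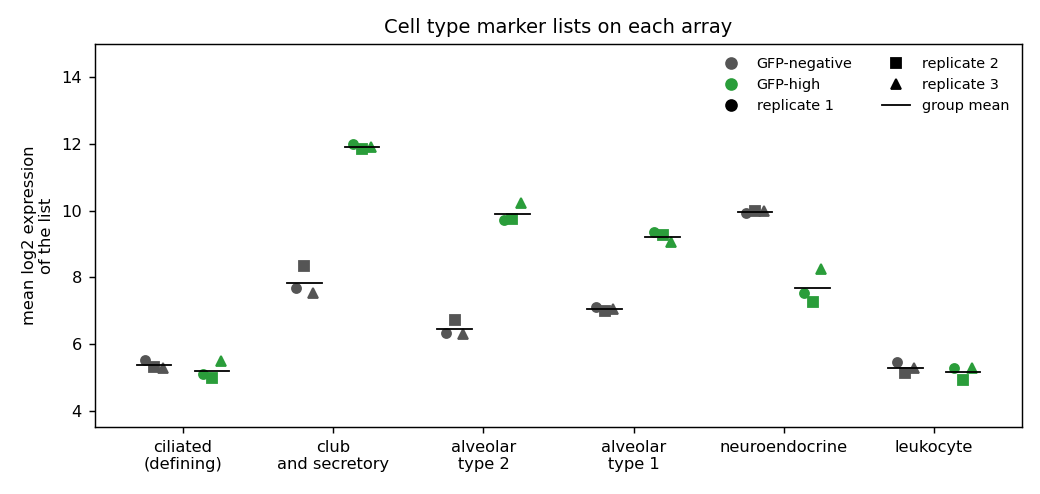
Mean log2 expression (vertical axis) of 6 cell type marker lists on each array, with symbols for replicates and bars for group means. The ciliated list overlaps between the groups (4.99 to 5.51 over all arrays), whereas the club, alveolar type 2 and alveolar type 1 lists are higher and the neuroendocrine list lower on every GFP-high array.

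Of 110 further motile cilia genes in 9 lists, 12 were higher, 19 were lower and 79 did not pass (28.2% called, against 30% of all genes), with a median log2 fold change of 0.046. The count of higher genes was 7 without GFP-negative replicate 2.

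A list of multiciliation regulators holds factors that start the program or amplify centrioles, together with E2f4, E2f5 and 4 further Rfx factors. Of 14 measured, 6 were lower and 1 was higher, and 50% were called against 30% of all genes. Myb, a transcription factor of early multiciliation and of proliferating cells, fell by 1.11 ± 0.16 on the log2 scale (SE, adjusted p = 0.000902). Mcidas, a coactivator that starts multiciliation together with E2f factors, read 7.54, 7.23 and 7.35 in GFP-negative cells and 6.19, 6.03 and 6.60 in GFP-high cells, a log2 fold change of -1.10 ± 0.17 (SE, adjusted p = 0.00113). Trp73, which activates Foxj1 and other ciliary genes, fell by 0.92 ± 0.17 (SE). Chosen after their values were seen, Deup1, the scaffold of the deuterosome, was at -0.79 and Ccno at -0.66, and the call of Ccno was lost with GFP-negative replicate 1 or 2 or GFP-high replicate 2 or 3 left out (adjusted p = 0.0753 to 0.120). The other fall was Rfx7 and the only riser Rfx4, as given above, and the median of the list was -0.15. Neuroendocrine markers fell in the same arrays, as given above, and their part in these falls was not tested.

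Most dynein arm genes did not pass, and neither did most of all genes, of which 30% were called. The called share was 15.4% of outer arm and docking genes, 14.3% of inner arm genes and 20% of assembly factors. Of 13 outer arm and docking genes 1 rose and 1 fell. Efcab1, the calcium sensor calaxin, read 8.79, 8.39 and 8.14 in GFP-negative cells and 6.00, 4.89 and 6.59 in GFP-high cells (log2 fold change -2.62 ± 0.38 SE, adjusted p = 0.000921). Dnah11, an outer arm heavy chain like Dnah5, rose from 4.98, 5.04 and 4.97 to 6.36, 6.10 and 6.33 (1.27 ± 0.12 SE, adjusted p = 8.3e-05). Of 7 inner arm genes only Dnah6 passed, with a rise of 1.16 ± 0.15 (SE). Of 10 assembly factors, which fold the arms in the cytoplasm, Cfap300 fell by 1.26 ± 0.21 on the log2 scale (SE), and Dnaaf4 rose by 0.36, a call lost in 9 of its 12 alternatives, per-array median centring (adjusted p = 0.0605), quantile normalization (0.0997) and 5 of the left-out arrays among them (up to 0.123).

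Among structural genes, Ccdc40, the partner of Ccdc39, fell by 0.47 ± 0.11 on the log2 scale (SE, adjusted p = 0.00939), while Drc7 of the nexin-dynein regulatory complex rose by 0.46 ± 0.12, and the other 8 genes of that list did not pass. Of 12 radial spoke genes 2 were lower, Rsph3a (-0.77 ± 0.11 SE) and Maats1 (-0.73 ± 0.18 SE), and none was higher. Of 11 central pair genes Cfap74 (-0.80 ± 0.17 SE) and Spef1 (-0.59 ± 0.19 SE) were lower. Tektins and other proteins inside the doublets had 3 higher and 3 lower of 17, among them falls of Tekt5 (-1.57 ± 0.22 SE) and Efhc2 (-0.87 ± 0.13 SE) and a rise of Enkur (0.73 ± 0.19 SE). Called were 20% of the list with Ccdc40 and Drc7 and 16.7% of the radial spoke genes. The central pair list had 18.2% called and the tektin list 35.3%, against 30% of all genes. The calls of Drc7, Maats1, Spef1 and Enkur each depend on single arrays. Drc7 missed the threshold when GFP-negative replicate 1 or 2, or GFP-high replicate 2 or 3, was left out (adjusted p = 0.0510 to 0.0696), and Maats1 when GFP-high replicate 2 or GFP-negative replicate 1 was (0.0519 to 0.0618). Spef1 missed it with any array other than GFP-negative replicate 1 left out (0.0547 to 0.149) and under quantile normalization (0.0835), and Enkur with GFP-high replicate 1 or 3 or GFP-negative replicate 2 left out (0.0572 to 0.0659).

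Within the cilia lists, other ciliated cell genes held the only rise as large as that of Dynlrb2. Sec14l3, a lipid-binding protein, read 4.53, 3.82 and 5.11 in GFP-negative cells and 8.07, 8.06 and 7.92 in GFP-high cells, which is 11.6-fold more (3.53 ± 0.28 on the log2 scale, SE). Mlf1 fell by 1.87 ± 0.15 and Lrriq1 rose by 1.01 ± 0.13 on the log2 scale (SE). In all, 4 of the 16 genes were higher, 3 were lower and 9 did not pass, with a median of 0.20. This was 43.75% called, against 30% of all genes.

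Genes shared with the primary cilium were also divided. Of 29 intraflagellar transport genes, which carry cargo along the axoneme, 5 were higher and 8 lower, with a median of -0.15. This was 44.8% called, against 30% of all genes. Wdr60, a chain of the retrograde dynein motor, rose by 1.21 ± 0.12, and Ift80 and Ift57 of the anterograde complex fell by 0.83 ± 0.14 and 0.70 ± 0.17 on the log2 scale (SE). Of 21 primary cilium and BBSome genes 1 rose and 4 fell (23.8% called, median -0.10). The riser was Smo, the Hedgehog signal transducer, at 6.09, 5.86 and 5.85 in GFP-negative cells and 8.40, 8.71 and 8.71 in GFP-high cells (log2 fold change 2.67 ± 0.13 SE). The transition zone genes Tmem67 (-0.56) and Nphp4 (-0.50) were among the falls, and Tmem67 lost its call with the mean of all rows of the gene (-0.34, adjusted p = 0.0954) and without any GFP-negative array or GFP-high replicate 2 (0.0549 to 0.0853).

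**Figure D5:**
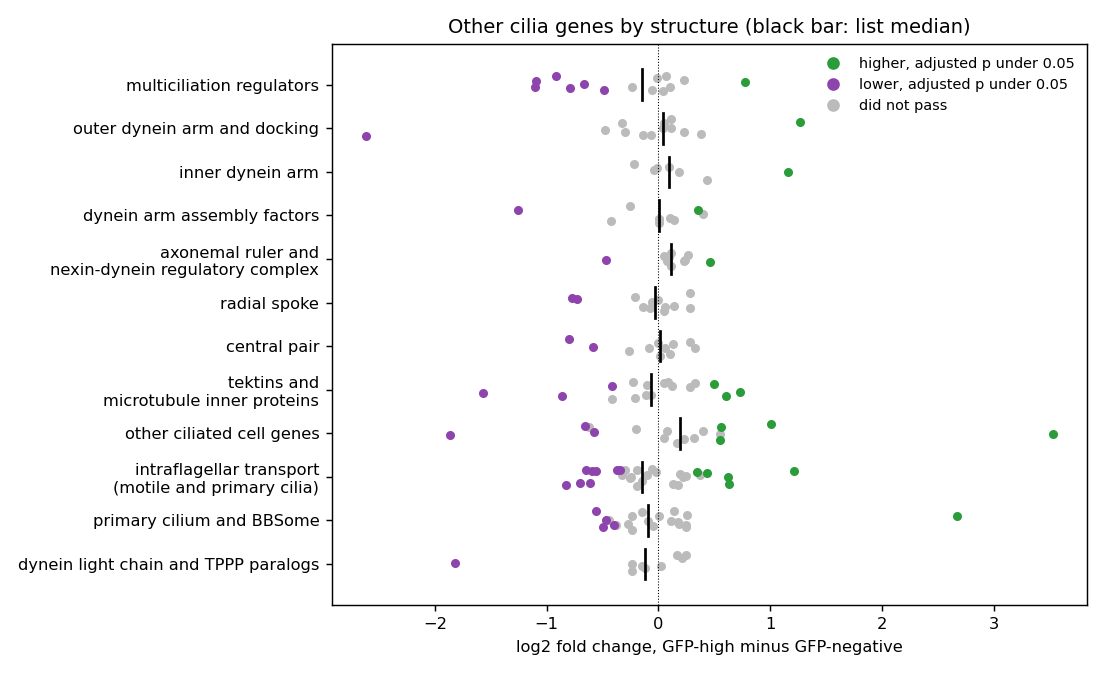
Log2 fold change of GFP-high minus GFP-negative (horizontal axis) for each measured gene of 12 cilia gene lists, coloured by the call, with black bars at list medians. The medians lie between -0.15 and 0.20, and single genes such as Efcab1 (-2.62), Smo (2.67) and Sec14l3 (3.53) lie far from their lists.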

How the data were processed

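The authors deposited log2 values from RMA, per the submitters' processing notes, with no version or annotation release given in the sources used here. RMA as a method corrects background, gives the probe values of all arrays the same distribution and then summarises the probes of a set. It would thus hide a shift common to most genes, and differences at low levels are compressed. The log2 scale was read from the values. Of 41344 rows, 23520 name exactly 1 gene, 1814 several and 16010 none in the platform annotation; 1082 genes have several rows and were read from the row with the highest mean. 0 columns belonged to other samples.

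GFP-high minus GFP-negative was tested with limma 3.58.1 in R 4.3.3 (lmFit, eBayes, 4.50 prior and 4 residual degrees of freedom, no block), two-sided, Benjamini-Hochberg over 22179 genes; calls are at an adjusted p under 0.05. Errors in differences are moderated standard errors. Precision is limited by the number of arrays (3 per group), and a permutation of 3 against 3 cannot give a p below 0.1. The script was tested on simulated data. Members and gene lists were chosen with earlier results of these data known. Of 189 places in 12 cilia lists 169 were measured, and 76 of 80 in 10 marker lists; the rest were not analysed here. Symbols were matched as given, by RefSeq synonym for 4 places and by an older symbol known for the gene for 14. Named beside the members are up to 3 called genes per list with the largest change and groups that do not overlap, and the measured genes of a list of dynein light chain, Tppp and Cdhr paralogs. Other Rfx, Tekt and Cdhr paralogs, Deup1, Ccno, Tmem212, Rsph4a and Sntn were added after their values were seen. Alternatives were quantile normalization, centring each array on its median, dropping the 30% of genes with the lowest mean, averaging the rows of a gene, trend and robust eBayes, array weights, the replicate block and leaving out each array. Figures used Python 3.11.15 with matplotlib 3.10.9.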

Additional observations from a re-analysis of the deposited data

How the results depend on the processing

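The 2 members called higher, Dynlrb2 and Cdhr3, and the fall of Rfx3 kept their direction and their call in all 13 alternatives, as Rsph1 did in 10 and Tppp3 in 9 of 13. With an array left out, members called lower numbered 1 to 4 and other motile cilia genes called higher 7 to 12 and called lower 15 to 18. Across the left-out arrays the log2 fold change ran from -0.67 to 0.013 for Foxj1, from -0.042 to 0.0012 for Rfx2, from -0.12 to 0.097 for Tppp2, from -0.0037 to 0.22 for Tekt3 and from -0.34 to 0.035 for Cdhr5, each crossing 0. Rfx2 turned sign also under quantile normalization (0.064) and with array weights (0.00033), and Tppp2 likewise (-0.042 and -0.000935). None of the values with the turned sign was called. Over the named genes and alternatives, 676 values stayed on the same side, 45 lost a call, 4 gained one and 9 reversed.

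GFP-high and GFP-negative arrays share replicate numbers, but these are not said to pair samples, so the main test used no block. Deviations from the group means correlated at 0.11, -0.03 and -0.0016 for the same-numbered arrays. For differently numbered arrays they correlated at -0.073 to 0.063. With 3 arrays per group these values cannot decide whether samples were paired. With the replicate block 2 members were higher and 3 lower, other motile cilia genes were 11 higher and 21 lower, and 2729 genes were higher and 3443 lower in all, against 2888 and 3773 without it. Without detection calls, differences at the lowest levels could not be set against background.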
